A study of Mus musculus with 6 samples.

Results

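The SLAM family is a group of receptors on blood-derived cells, and SAP, encoded by Sh2d1a, is the small adaptor protein that carries their signal. The genes described here are 10: the receptors Slamf1, Slamf6, Slamf7, Slamf8, Slamf9, Cd48, Cd84, Cd244 and Ly9, and Sh2d1a. They were taken by gene symbol, or by the current symbol of the RefSeq accession, from the probe annotation of the array, and all 10 were found, on 22 of the 56599 probes used and among 37006 genes (Cd244 stands as Cd244a in the RefSeq table). The genes were chosen with earlier results of the same comparison known, so their differences are given as a description, with no test.

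RNA came from the renal cortex of male C57BL/6 mice that were all diabetic: from 8 weeks of age they ate a diet with 60% of its calories from fat, and after 4 weeks they received streptozotocin, which destroys the beta cells of the pancreas, at 60 mg/kg on 3 days. They were killed 26 weeks after streptozotocin. The C3aR-/- group (n = 3) lacked the receptor of the complement fragment C3a, and the WT group (n = 3) did not. How the receptor gene was disrupted, and in which cells, is not stated in the labels, and they do not say whether each replicate is an animal of its own, so the spread described is that between these samples. Non-diabetic mice of either genotype were not analysed here.

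SLAM receptors carry immunoglobulin-like domains on the cell surface. Most bind a copy of themselves on a neighbouring cell, whereas CD244 binds CD48, which is held in the membrane by a lipid anchor and in mice also binds CD2. Many of the receptors have tyrosine-based switch motifs in their cytoplasmic tails, and these dock SAP, which brings in the kinase Fyn, or the related adaptor EAT-2. SAP is needed for cytotoxic responses, for help from T cells to B cells and for the development of natural killer T cells, and its loss in humans causes X-linked lymphoproliferative disease. In kidney the family is known from resident and infiltrating leukocytes.

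The probes below show what the arrays read for some of the genes. Slamf6, Sh2d1a, Slamf7 and Cd48 are shown because these probes read lower in every C3aR-/- sample than in every WT sample, and Slamf1 and Cd244 because their groups overlapped. The Sh2d1a, Cd48 and Cd244 probes shown are not those whose levels stand for these genes below. On the Cd48 probe that does, the groups overlapped. The sequences, written 5′ to 3′, and the positions, on mm9, are those of the array files. In the Cd244 probe the capitals mark bases 29 to 46, which match the codon pattern of the tyrosine-based switch motif, the SAP docking site.
Slamf6 A_52_P45563: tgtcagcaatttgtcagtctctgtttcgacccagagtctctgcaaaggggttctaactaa
Sh2d1a A_55_P2745462: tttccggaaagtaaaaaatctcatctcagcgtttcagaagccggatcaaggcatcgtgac
Slamf7 A_52_P261262: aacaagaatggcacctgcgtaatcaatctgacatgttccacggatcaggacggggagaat
Cd48 A_55_P2132549: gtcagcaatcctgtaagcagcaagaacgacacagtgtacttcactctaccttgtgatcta
Slamf1 A_52_P158959: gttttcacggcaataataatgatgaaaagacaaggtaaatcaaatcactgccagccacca
Cd244 A_52_P541344: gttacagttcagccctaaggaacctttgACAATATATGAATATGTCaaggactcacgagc

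The Slamf6 probe spans chr1:173866817-173868145, the Slamf1 probe chr1:173718133-173722451 and the Cd244 probe chr1:173507474-173508000, all on the plus strand. Each span exceeds the 60 bases of the probe, so the probe joins stretches that are apart in the genome. The Slamf7 probe lies at chr1:173569299-173569358 on the minus strand, the Cd48 probe at chr1:173629721-173629780 and the Sh2d1a probe at chrX:39873846-39873905, both on the plus strand. All receptor genes lie on chromosome 1 and Sh2d1a on chromosome X. The switch-motif pattern was searched in any frame and on both strands: of the 22 probes it was found in this Cd244 probe, in a frame without a stop codon, and on the opposite strand of a Cd84 probe, in a frame with one, and 1.49% of all probes hold it. A second Cd244 probe, A_55_P1977812, is shown in part, because its letters are not particular to the gene. It lies at chr1:173515388-173515447 on the plus strand, and the capitals mark the 16 bases it shares most often.
Cd244 A_55_P1977812, bases 1 to 30: tgcaCAGAGAAACCCTGTCTcaatccctaa

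These 16 bases, on either strand, were found in 11 probes of the array, itself included, and in 42 of 32851 RefSeq promoter windows. The whole probe shared at least 1 run of 16 bases with 13 probes of other genes and with 0.149% of the promoter windows. The other 21 member probes shared such a run with at most 1 probe of another gene and at most 3 promoter windows.

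Each array was read in 1 colour, with 58.6% to 63.0% of probes well above background by the scanner's flag. A level here is the log2 of the processed signal relative to the array's 75th percentile, and levels of different probes are not set against each other. The probe with the highest mean over the 6 arrays stood for a gene. Differences are C3aR-/- minus WT in log2 units with the limma standard error, over 3 arrays a group, whose number limits the precision. Markers of proximal tubule, podocyte and thick ascending limb were well above background on all 6 arrays. C3ar1, the targeted gene, read -4.10, -4.95 and -4.69 in C3aR-/- cortex, against -2.96, -3.86 and -3.62 in WT cortex, a difference of -1.10 ± 0.32 (limma adjusted p = 0.93). Its probe was still well above background on 2 of the 3 C3aR-/- arrays, and whether it lies in the part that was disrupted is not stated in the sources used here.

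Among the 10 genes, 7 read lower on average in C3aR-/- cortex, and in 5 (Slamf6, Ly9, Slamf7, Slamf8 and Sh2d1a) all 3 C3aR-/- samples lay below all 3 WT samples. Over all genes 43.6% were lower and 3.12% were lower without overlap. None of the 10 was higher without overlap, against 4.35% of all genes. The measured means of 4 genes (Slamf6, Ly9, Slamf8 and Sh2d1a) lay 2-fold or more lower, as did 1.78% of all genes. However, Slamf6, Ly9 and Sh2d1a were well above background on no C3aR-/- array. Slamf6 and Sh2d1a have the smaller bounds given with each gene, and for Ly9 no fold is given. The median difference was -0.72, against 0.013 over all genes. Because the choice of genes used this contrast, nothing is read from these counts. In the limma test across 22569 genes well above background on at least 3 arrays, 0 genes passed an adjusted p of 0.05 (0% called), while 602 were lower (2.67%) and 498 higher (2.21%) at an unadjusted p under 0.05. Of the 10 genes 8 were in that test, Ly9 and Slamf1 being too dim. In bulk cortex, fewer cells of a type and less RNA per cell cannot be told apart.

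**Figure D1:**
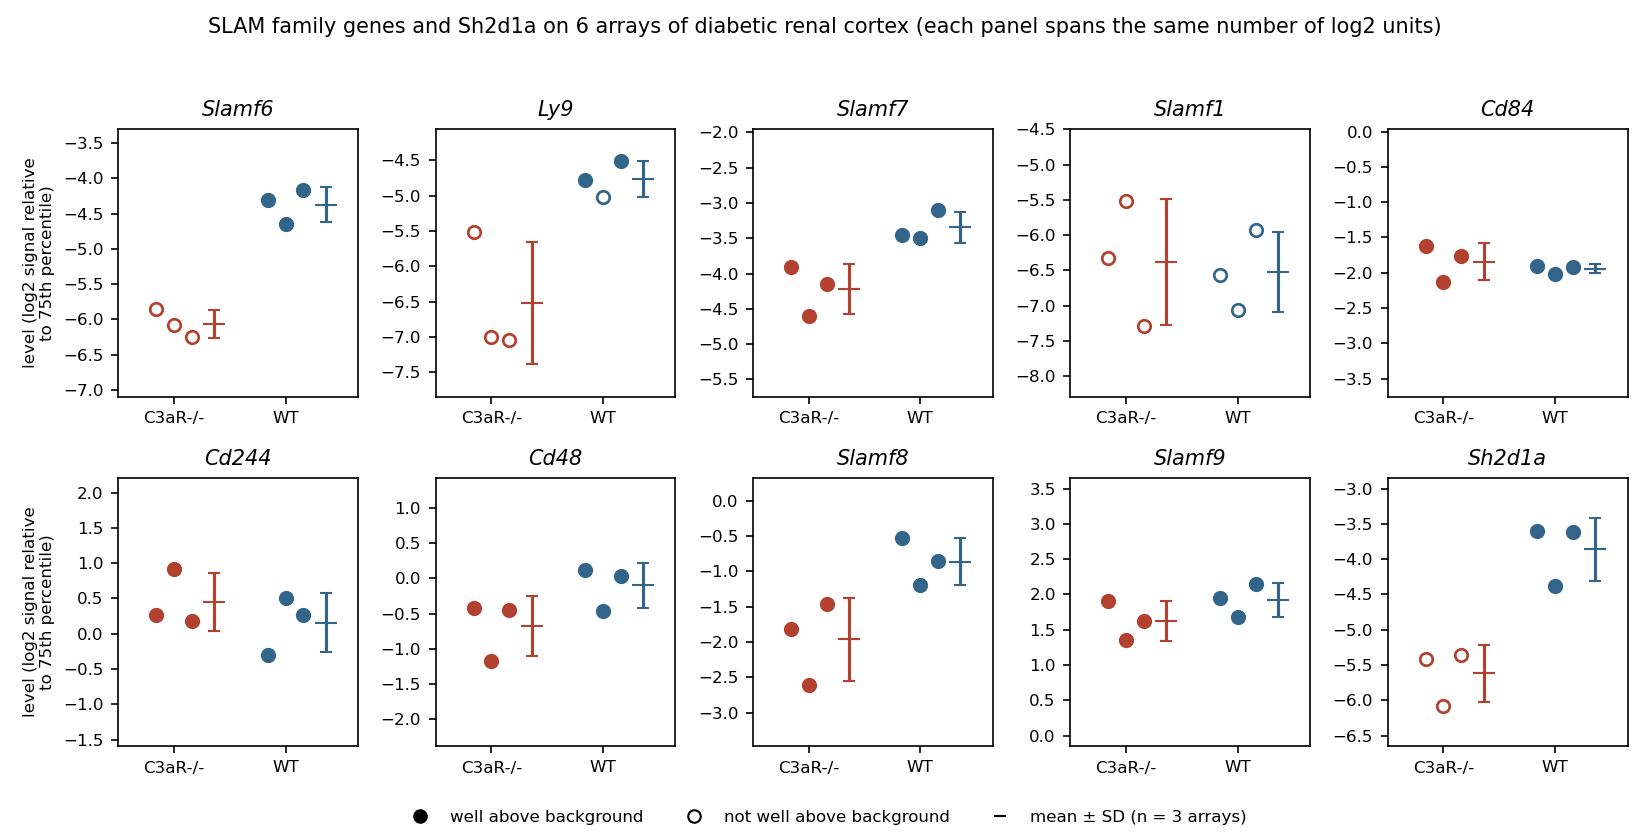
Level of each of the 10 genes (vertical axis, log2 signal relative to the array's 75th percentile) on 3 C3aR-/- arrays (red, left) and 3 WT arrays (blue, right), with mean ± SD beside the points and open circles for readings not well above background. The groups separate for Slamf6, Ly9, Slamf7, Slamf8 and Sh2d1a, with C3aR-/- lower in each, and overlap for the other 5.

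Among the receptors that bind a copy of themselves, Slamf6, also called Ly108, is a receptor of T, B and NK cells that signals through SAP. Values are given in the order of replicates 1 to 3 throughout. Slamf6 read -5.86, -6.08 and -6.25 in C3aR-/- cortex, against -4.31, -4.65 and -4.17 in WT cortex. In processed signal units these were 11.04, 7.99 and 8.60 in C3aR-/- cortex, against 35.1, 26.6 and 33.9 in WT cortex. The groups lay well apart, and the probe was well above background on all 3 WT arrays and on none of the C3aR-/- arrays. The measured difference was -1.69 ± 0.18, but with the C3aR-/- side only bounded, Slamf6 was at least 1.63-fold lower in C3aR-/- than in WT. Such a bound sets the WT mean against the lowest signal that was well above background on each C3aR-/- array. The other 2 Slamf6 probes were well above background on no array, overlapped between groups and differed by -0.95 ± 0.47 and -0.60 ± 0.31.

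Ly9, or CD229, is carried by T and B cells and also signals through SAP. Its single probe read -5.52, -7.01 and -7.04 in C3aR-/- cortex, against -4.78, -5.01 and -4.51 in WT cortex. All C3aR-/- values lay below the WT values, although replicate 1 lay much nearer to them than the others. The probe was well above background on 2 of 3 WT arrays and on no C3aR-/- array. The measured difference was -1.75 ± 0.44. No fold is given, since neither the C3aR-/- arrays nor 1 of the WT arrays measured Ly9.

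Slamf7, also named CRACC or CS1, is found on NK cells, plasma cells and activated macrophages, and works through EAT-2 rather than SAP. It read -3.90, -4.60 and -4.14 in C3aR-/- cortex, against -3.45, -3.50 and -3.09 in WT cortex. The groups did not overlap, replicate 2 was the lowest C3aR-/- sample, and the probe was well above background on all 6 arrays. The difference was -0.87 ± 0.22, or 0.548 times the WT level.

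Slamf1, the receptor also called CD150, is found on activated lymphocytes and dendritic cells. Its 2 probes disagreed and neither was well above background on any array. The shown probe read -6.33, -5.52 and -7.29 in C3aR-/- cortex, against -6.57, -7.07 and -5.93 in WT cortex, with full overlap and a difference of 0.14 ± 0.51. The other probe, at chr1:173730343-173730402, read -7.63, -6.97 and -7.39 in C3aR-/- cortex, against -5.68, -6.03 and -5.47 in WT cortex. Here the groups lay apart, with a difference of -1.60 ± 0.23. The lowest level of any probe on these arrays ranged from -7.70 to -7.08 in C3aR-/- and from -7.58 to -7.12 in WT, so the C3aR-/- readings of this probe sat close to the floor of the arrays. No fold is given, since both groups were below background.

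Cd84 is a self-binding receptor of lymphocytes, macrophages and platelets, and its 3 probes disagreed. The probe at chr1:173820593-173820652, which stood for the gene, read -1.63, -2.14 and -1.76 in C3aR-/- cortex, against -1.90, -2.01 and -1.92 in WT cortex. The WT samples fell inside the range of the C3aR-/- samples, and the difference was 0.10 ± 0.17. The probe at chr1:173785140-173785199 read -4.71, -5.62 and -4.54 in C3aR-/- cortex, against -3.70, -4.20 and -3.54 in WT cortex. The probe that spans chr1:173816502-173818732 read -5.18, -6.56 and -5.18 in C3aR-/- cortex, against -3.08, -5.02 and -4.31 in WT cortex. Both of these were lower without overlap, by -1.14 ± 0.33 and -1.51 ± 0.60. The first of them was well above background on 2 C3aR-/- and 3 WT arrays, and the second on 1 C3aR-/- and 2 WT arrays. Taking the mean of the probes instead gave a Cd84 difference of -0.85, so its direction depends on the probe.

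CD244, or 2B4, is a receptor of NK cells and cytotoxic T cells that can activate or inhibit depending on SAP, and its ligand is CD48. Cd244 read 0.26, 0.91 and 0.17 in C3aR-/- cortex, against -0.29, 0.51 and 0.26 in WT cortex, on the probe at chr1:173539819-173539877. This probe is annotated to another transcript than the other Cd244 probes and lies beyond the Ly9 probe at chr1:173518744-173518790. Whether its signal comes from Cd244 mRNA was not checked. The groups overlapped and the difference was 0.29 ± 0.29. It was 0.059 without C3aR-/- replicate 2, 0.064 without WT replicate 1 and -0.17 without both. The other Cd244 probes also overlapped: the one with shared letters differed by 0.18 ± 0.18, and the one over the switch motif by 0.053 ± 0.26. The motif probe was well above background on 2 C3aR-/- arrays and 1 WT array. None of the 3 probes was lower on average.

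Cd48, which encodes the CD244 ligand and is carried by nearly all leukocytes, read -0.42, -1.17 and -0.45 in C3aR-/- cortex, against 0.12, -0.47 and 0.037 in WT cortex. WT replicate 2 fell just below C3aR-/- replicates 1 and 3, so the groups overlapped, and the difference was -0.57 ± 0.27. It was -0.33 without C3aR-/- replicate 2 and -0.22 without both that sample and WT replicate 1. The second Cd48 probe, the one shown above, read -1.77, -2.45 and -1.89 in C3aR-/- cortex, against -1.11, -1.67 and -1.18 in WT cortex. On that probe the groups did not overlap and the difference was -0.72 ± 0.25. Both probes were well above background on all 6 arrays and pointed the same way.

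Slamf8 and Slamf9 have short tails without switch motifs and are known from macrophages and dendritic cells, where SLAMF8 restrains the oxidative burst in mice. Slamf8 read -1.81, -2.62 and -1.46 in C3aR-/- cortex, against -0.53, -1.19 and -0.85 in WT cortex. In processed signal units these were 183, 88.4 and 238 in C3aR-/- cortex, against 481, 293 and 338 in WT cortex. The groups did not overlap, C3aR-/- replicate 2 was the lowest, and all 6 readings were well above background. The difference was -1.10 ± 0.34, or 0.466 times the WT level. Without C3aR-/- replicate 2 and WT replicate 1, which gave the highest and the lowest sum of proximal tubule markers, it was -0.61.

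Slamf9 read 1.91, 1.35 and 1.62 in C3aR-/- cortex, against 1.95, 1.68 and 2.15 in WT cortex. The WT samples were higher on average, but C3aR-/- replicate 1 lay inside their range. The difference was -0.30 ± 0.20, with all readings well above background, and -0.16 without C3aR-/- replicate 2 and -0.18 without WT replicate 3.

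Sh2d1a encodes SAP, the adaptor that links the receptor tails to Fyn. It read -5.41, -6.08 and -5.35 in C3aR-/- cortex, against -3.60, -4.38 and -3.61 in WT cortex, on the probe at chrX:39875116-39875175. In processed signal units these were 15.0, 8.02 and 16.03 in C3aR-/- cortex, against 57.5, 32.3 and 49.9 in WT cortex. The groups lay apart, and the probe was well above background on all 3 WT arrays and on no C3aR-/- array. The measured difference was -1.75 ± 0.30, and Sh2d1a was at least 2.32-fold lower in C3aR-/- than in WT.

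The other 4 Sh2d1a probes were well above background on at most 1 array. The probe shown above read -7.03, -7.07 and -7.43 in C3aR-/- cortex, against -4.68, -5.71 and -5.36 in WT cortex, without overlap, with a measured difference of -1.93 ± 0.29. It was well above background on 1 WT array only, so no fold is given. Another probe, at chrX:39874920-39874979, differed by -1.47 ± 0.70, with C3aR-/- replicate 2 inside the WT range and 1 WT array well above background. The last 2 were well above background on no array, stayed at the floor in both groups and differed by -0.01 and 0.02.

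**Figure D2:**
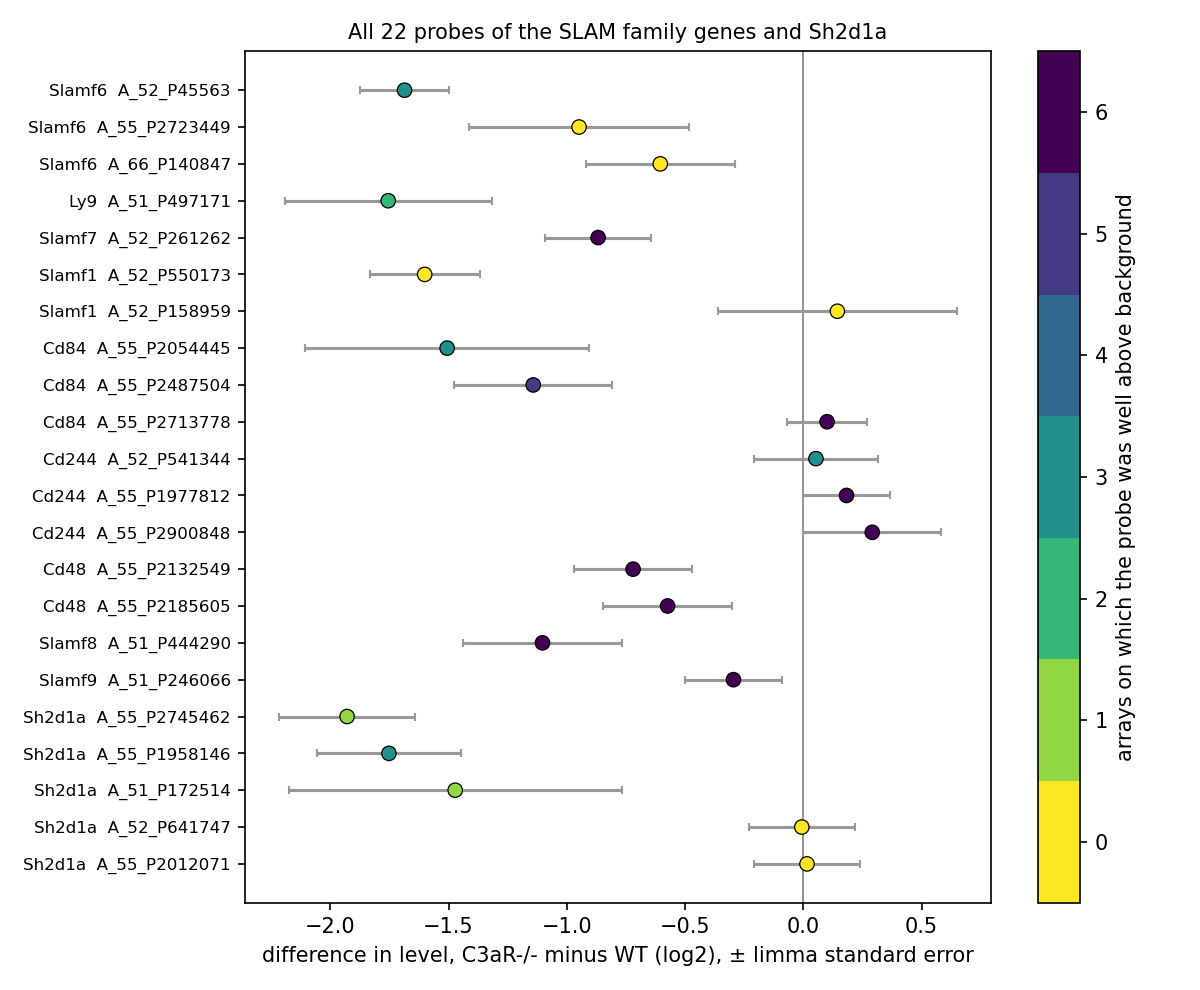
Difference in level for each of the 22 probes (horizontal axis, C3aR-/- minus WT in log2 units, bars ± limma standard error), grouped by gene, with the colour giving the number of arrays on which the probe was well above background. Of the 22 probes 16 lie left of 0, and the Cd84, Slamf1 and Sh2d1a probes are spread over both sides or at 0.

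Over the 22 probes the median difference was -0.79, and 10 were lower without overlap, as were 3.03% of all probes. Of the 22 probes 0 were higher without overlap, against 4.35% of all genes. The 13 probes with at least 3 readings well above background included every probe of Slamf7, Slamf8, Slamf9, Cd48, Cd84 and Cd244. The 6 that were above it on no array belonged to Slamf1, Slamf6 and Sh2d1a. For dim probes the size of a difference depended on the background step: with the normexp correction, which adds a fixed offset, Slamf6 differed by -0.41, Ly9 by -0.28, Sh2d1a by -0.51 and Slamf7 by -0.42. Slamf8, with a stronger signal, differed by -0.85 and Cd48 by -0.51.

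The same samples were often the extremes of their group. C3aR-/- replicate 2 gave the lowest C3aR-/- value in 6 of the 10 genes and C3aR-/- replicate 3 in the other 4, while C3aR-/- replicate 1 gave the highest in 6. WT replicate 2 gave the lowest WT value in 9 of 10 genes. The median deviation of the genes from their own means was -0.034, -0.80 and -0.26 in C3aR-/- cortex, against 0.42, 0.21 and 0.54 in WT cortex. On the slide, C3aR-/- replicates 1 and 2 and WT replicates 2 and 3 lay in the first row, and C3aR-/- replicate 3 and WT replicate 1 in the second. Within the first and the second row, Slamf6 differed by -1.56 and -1.94, Slamf8 by -1.19 and -0.93, Slamf7 by -0.95 and -0.70 and Sh2d1a by -1.75 and -1.76. Slamf1 differed by 0.58 and -0.72 in these rows, of opposite sign.

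The 25 signalling partners are genes known to act with SLAM receptors or SAP: adaptors, kinases, phosphatases, later steps and genes of SAP-dependent lymphocyte programmes. Of these, 17 were lower in C3aR-/- cortex (43.6% of all genes), 8 of them without overlap (3.12% of all genes). Of the partners 1 was higher without overlap (4.35% of all genes), and the median difference was -0.086. Of the 22 in the limma test 0 passed the adjusted threshold. At an unadjusted p under 0.05, 5 were lower (2.67% of all tested genes) and 1 was higher (2.21% of all tested genes). Sh2d1b1, which encodes EAT-2, read -5.38, -7.02 and -5.45 in C3aR-/- cortex, against -4.72, -5.11 and -4.54 in WT cortex. Its groups did not overlap, but it was well above background on no C3aR-/- array and on 2 WT arrays, and the measured difference was -1.16 ± 0.47. Sh2d1b2, a second EAT-2-like adaptor gene of mice, was well above background on no array and differed by 0.021.

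Cd2, the T and NK cell receptor that in mice binds CD48, read -1.61, -2.56 and -1.70 in C3aR-/- cortex, against -0.66, -0.80 and -0.036 in WT cortex. The groups lay apart and the difference was -1.46 ± 0.33, which did not pass the limma test (adjusted p = 0.925). Lck, the kinase that starts T cell receptor signalling, differed by -0.97 ± 0.25 (limma adjusted p = 0.93), and Icos, a T cell co-stimulator, by -1.21 ± 0.29 (limma adjusted p = 0.925). Dok1, a docking protein that dampens Ras signalling, differed by -0.65 ± 0.15 (limma adjusted p = 0.925), and Vav1, a signalling protein of blood-derived cells, by -0.58 ± 0.20 (limma adjusted p = 0.93). In all 4, as in 3.12% of all genes, the C3aR-/- samples lay below the WT samples. These 4 were named for the smallest limma p among the partners other than Cd2 and the EAT-2 genes. Their separation is therefore no separate result. Fyn, the kinase that SAP recruits, differed by -0.073 ± 0.13, with overlap, and Il21, a cytokine of helper T cells, was the partner higher without overlap, by 0.30 ± 0.13, although it was well above background on only 1 WT array against 3 C3aR-/- arrays. Fyn and Il21 were named after their values were seen.

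The receptor genes lie in a run on chromosome 1, and 21 other genes between the outermost of them were on the array. Of these neighbours 10 were lower in C3aR-/- cortex (43.6% of all genes), 0 of them without overlap (3.12% of all genes), and the median difference was 0.013. None passed the limma test, and 0 had an unadjusted p under 0.05. Among those well above background on at least 3 arrays, large differences were 0.84 ± 0.66 for Casq1, a calcium-binding protein of muscle, and -0.32 ± 0.16 for Pea15a, a regulator of cell death and ERK signalling. Both had overlapping groups, and without C3aR-/- replicate 1 the Casq1 difference was 0.057. Pex19, which serves peroxisome assembly, was higher without overlap, by 0.18 ± 0.13, and was named after its values were seen.

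**Figure D3:**
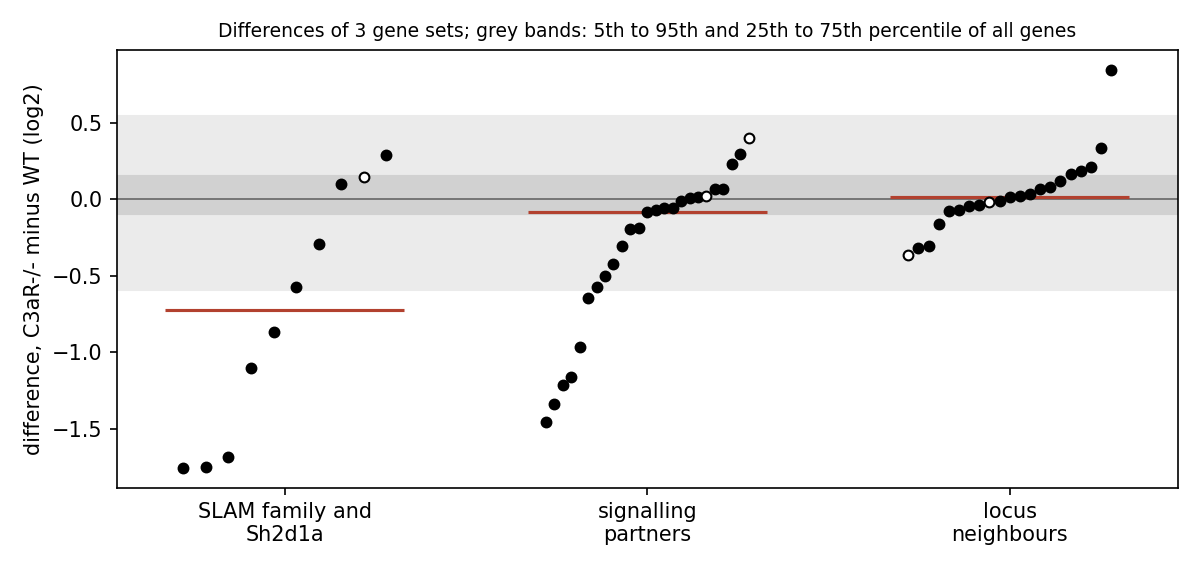
Difference of each gene (vertical axis, C3aR-/- minus WT in log2 units) among the 10 SLAM family genes with Sh2d1a, their 25 signalling partners and the 21 locus neighbours, with red lines at the medians (-0.72, -0.086 and 0.013) and open circles for genes well above background on no array. The grey bands span the 5th to 95th and 25th to 75th percentile of all genes, and 5 of the 10 lie below the lower edge.

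For Slamf6 and for Sh2d1a, the genes with the most similar profile were sought among 16929 RefSeq-named genes, as the smallest root mean square distance between the values on the 6 arrays after each gene was centred on its mean. Nearest to Slamf6 were A430093F15Rik at 0.269, Pdcd1 at 0.284, Sh2d1a at 0.290, Tnfrsf18 at 0.290 and Cd6 at 0.306 log2 units. Nearest to Sh2d1a were Tnfrsf18 at 0.215, Pdcd1 at 0.224, Ccl1 at 0.225, Cd3g at 0.229 and Ms4a4b at 0.239 log2 units. These 7 genes other than Sh2d1a were all lower in C3aR-/- cortex without overlap, by -1.22 for Cd6 to -1.90 for Ccl1. They were picked for nearness to profiles that were themselves lower without overlap, so nothing is read from their direction. Ccl1 differed by -1.16 as the mean of its probes and by -1.06 with the normexp correction. The 6 arrays that give the distance are the same arrays that give the group difference, so such a distance is a description of these samples. Slamf6, Sh2d1a and A430093F15Rik were well above background on no C3aR-/- array, so their profiles are not measured on that side and the order of these close distances is not settled.

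Most leukocyte markers also read lower in C3aR-/- cortex, where 43.6% of all genes were lower and 3.12% were lower without overlap. Of 11 T cell markers 11 were lower in C3aR-/- cortex, 9 without overlap, with a median of -1.22, and their summed level ranged from 409% to 490% of the 75th percentile in C3aR-/- cortex, against 691% to 998% in WT cortex. Cd3g differed by -1.44 ± 0.39 and Cd3e by -0.51 ± 0.20, with the Cd3e groups overlapping, and 2 markers, Cd2 and Lck, are also among the signalling partners. Of 7 NK cell markers 6 were lower, 3 without overlap, with a median of -0.81 and summed levels of 65.9% to 80.5% in C3aR-/- cortex, against 86.5% to 115% in WT cortex. Their defining marker Ncr1 was well above background on no array, and Klrb1c, another, was above it on 1 C3aR-/- and 3 WT arrays and had overlapping groups. Klrb1c differed by -1.08 ± 0.52, by -0.52 without C3aR-/- replicate 3 and by -0.25 with the normexp correction. Their part in the SLAM family result was not tested.

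Of 9 macrophage markers 9 were lower, 4 without overlap, with a median of -0.60 and summed levels of 3441% to 4859% in C3aR-/- cortex, against 5387% to 7979% in WT cortex. Lyz2 gave 49.0% to 61.0% of this sum. Without Lyz2 the macrophage sums overlapped, at 1675% to 2480% in C3aR-/- cortex, against 2320% to 3639% in WT cortex. Adgre1 differed by -0.49 ± 0.25 and Csf1r by -0.37 ± 0.23, with overlap in both. Of 6 dendritic cell markers 5 were lower, 4 without overlap, with a median of -0.78 and summed levels of 112% to 154% in C3aR-/- cortex, against 212% to 266% in WT cortex. Itgax differed by -0.80 ± 0.19 and Flt3 by -0.73 ± 0.31, both without overlap. This Flt3 probe was well above background on 2 C3aR-/- and 3 WT arrays. Flt3 differed by -0.40 as the mean of its 2 probes, and by -0.058 with the filter on all 6 arrays, which takes the other probe. Of 7 B cell markers 5 were lower, 2 without overlap, with a median of -0.057 and summed levels of 80.4% to 85.4% in C3aR-/- cortex, against 95.8% to 115% in WT cortex. Of these, Cd79a and Blk were well above background on no array, and Cd79b differed by -0.66 ± 0.16. Cd79b gave 34.0% to 52.4% of the B cell sum. Without Cd79b the B cell sums overlapped, at 50.7% to 53.0% in C3aR-/- cortex, against 46.6% to 60.9% in WT cortex. The T cell, NK cell and dendritic cell sums still lay apart without the highest gene of each list. Plasma cell markers (4 of 5 lower, 0 without overlap, median -0.25) and neutrophil markers (4 of 5 lower, 0 without overlap, median -0.44) had overlapping groups gene by gene.

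Plasma cell markers summed to 4601% to 4901% in C3aR-/- cortex, against 4772% to 5634% in WT cortex, and neutrophil markers to 7998% to 9547% in C3aR-/- cortex, against 7349% to 8337% in WT cortex. Each of these sums was carried by 1 gene: Xbp1, which many cell types express, gave 93.8% to 97.1% of the plasma cell sum and Csf3r 93.0% to 97.7% of the neutrophil sum. Without Csf3r the neutrophil sum was 199.9% to 332% in C3aR-/- cortex, against 266% to 518% in WT cortex, and without Xbp1 the plasma cell sum was 143% to 284% in C3aR-/- cortex, against 235% to 272% in WT cortex. Of 4 markers of all leukocytes 3 were lower without overlap, with summed levels of 1242% to 1795% in C3aR-/- cortex, against 1885% to 2679% in WT cortex. Coro1a differed by -0.73 ± 0.23. The fourth, Ptprc, differed by 0.088 ± 0.16 on its chosen probe and by -0.46 as the mean of its probes. Of 6 proximal tubule markers 0 were lower, with a median of 0.34 and summed levels of 40680% to 66920% in C3aR-/- cortex, against 22850% to 52890% in WT cortex. The highest sum was that of C3aR-/- replicate 2 and the lowest that of WT replicate 1. Without these 2 samples 5 of the 6 tubule markers were lower and their median was -0.11. The 2 samples were picked as the extremes of this sum, so leaving them out was bound to lower its difference. Nothing is read from that change. Without C3aR-/- replicate 2 and WT replicate 1 the median was nearer 0 for T cell (-0.94), NK cell (-0.52), macrophage (-0.22) and dendritic cell markers (-0.66). For B cell markers it was further from 0 (-0.24). The part of these cell-type markers, and of the tubular share of the RNA, in the SLAM family result was not tested.

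**Figure D4:**
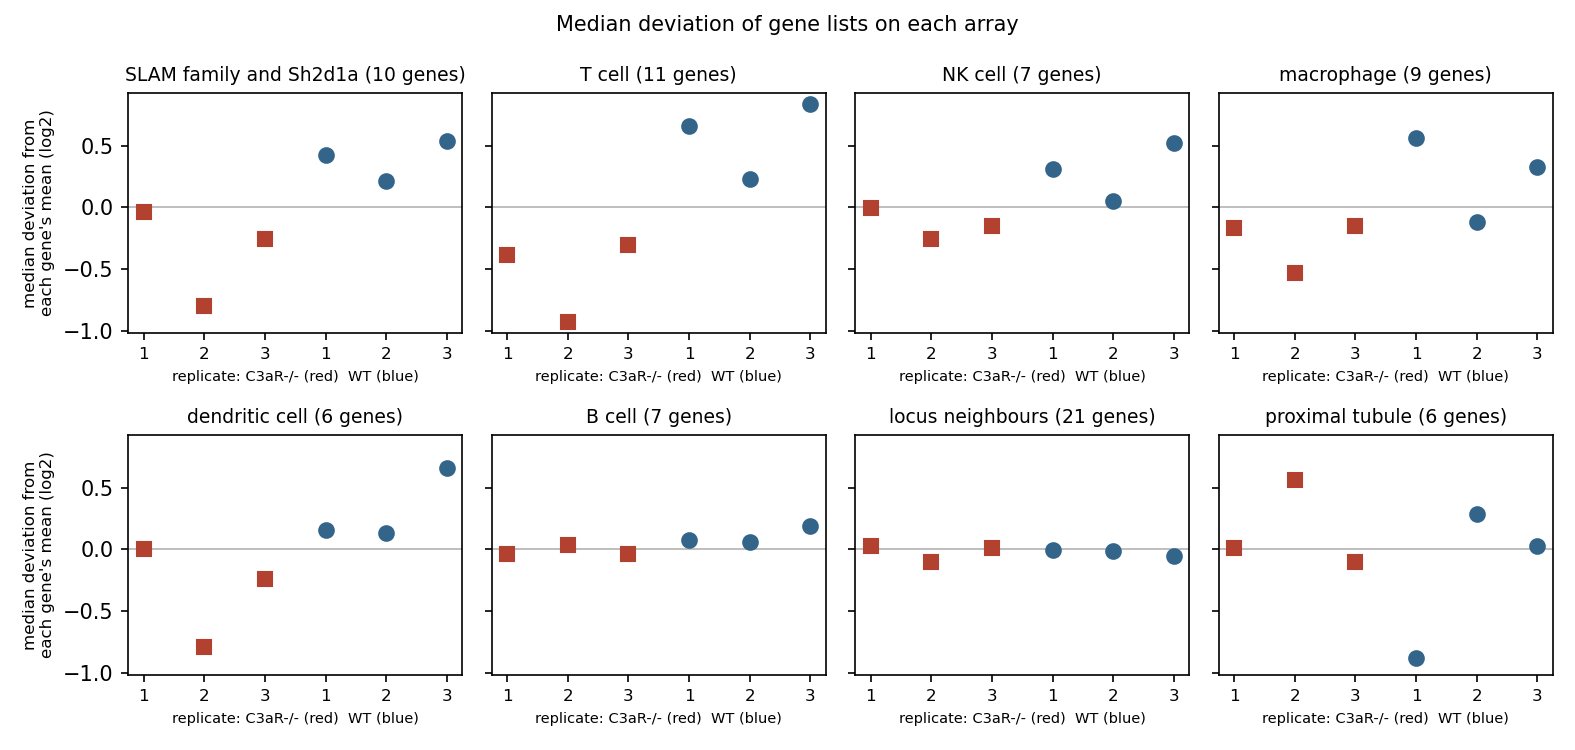
Median deviation of each gene list from its genes' own means (vertical axis, log2 units) on each array, C3aR-/- replicates 1 to 3 (red squares, left) and WT replicates 1 to 3 (blue circles, right), for the SLAM family with Sh2d1a, 5 leukocyte marker lists, the locus neighbours and proximal tubule markers. C3aR-/- replicate 2 gives the lowest SLAM family point, at -0.80, and the highest proximal tubule point, and the locus neighbours stay near 0 on all 6 arrays.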

How the data were processed

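The deposited intensity values are the processed, mean and local background signals of Agilent Feature Extraction 10.7.1.1, which per the file headers subtracts background but does not normalize between arrays. All 6 arrays lay on 1 slide, scanned on 1 day. The authors' deposited table holds log2 values whose sorted columns differ by at most 0.000865, with a median of 5.73; the sources used here do not name its tool or filters. The members and gene lists were chosen with earlier results of these data known. Control spots and flagged outliers were left out, 6 of 56605 probes were lost, and none was saturated. Symbols came through RefSeq accessions (GRCm38.p6) for 32992 probes, through older names for 520, and from the files for 23087. The 75th percentile of log2 processed signals on an array was subtracted from them to give levels, with 1 probe a gene, the highest mean. Members were summarised without a filter. All genes well above background on at least 3 arrays were tested with limma 3.58.1 (lmFit, eBayes, Benjamini-Hochberg) in R 4.3.3, after a test on simulated data. Named genes were the members, C3ar1, Sh2d1b1, Sh2d1b2, Cd2 and the 4 partners of smallest p, the 3 neighbours of largest difference, the 5 nearest profiles to Slamf6 and Sh2d1a, and the first 2 markers of each list; the values of 1 gene so named are not reported here. Figures were drawn with matplotlib 3.10.9.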

Additional observations from a re-analysis of the deposited data

How the results depend on the processing

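No gene passed the limma adjusted threshold under any alternative: quantile normalization, median scaling, normexp, the authors' deposited table, the mean of probes, a filter on all 6 arrays or none, trend and robust variances, array weights, a replicate or slide-row block, and leaving arrays out. With the normexp correction the median member difference was -0.35, and with the filter on all 6 arrays 2 of 6 members were lower without overlap, a filter that drops members dim in C3aR-/- cortex. Leaving out 1 array at a time gave a member median of -0.86 to -0.50. The partner median was then -0.18 to -0.063 and the neighbour median -0.017 to 0.044. From 5 to 7 members were then lower without overlap, but leaving out an array cannot reduce that count, so it is no sign of stability. The share of all genes was not taken with an array left out or with the filter on all 6 arrays, so nothing is read from these counts. Without both C3aR-/- replicate 2 and WT replicate 1 the member median was -0.46. Same-numbered samples had correlations of 0.119, 0.374 and -0.0793 in their deviations, which do not settle whether the numbers pair them. With the replicate block 0 genes were called. The member median stayed at -0.72, since neither the replicate nor the slide-row block can change a difference in this balanced design. Slamf6, Slamf7, Slamf8, Slamf9, Cd48, Ly9 and Sh2d1a were negative in every setting that gave a value (15 to 17 settings), while Cd84 ranged from -0.85 to 0.27, Cd244 from -0.17 to 0.47 and Slamf1 from -0.73 to 0.60. Of the single-gene values, 823 moved by less than the spread between replicates and 25 by more. The settings counted here include both blocks, which could not move a value, and the filter on at least 3 arrays, which gave the main values again. Leaving arrays out could not turn the sign of Slamf6, Slamf7, Slamf8, Ly9 or Sh2d1a, whose groups did not overlap. The authors' table nearly repeated quantile normalization. The number of settings of the same sign is therefore no sign of stability. Signal over background limits Slamf1, Ly9, Slamf6 and Sh2d1a, which were dim in C3aR-/- cortex.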
